A study of Mus musculus with 6 samples.

Results

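The genes described here are 35 markers of the resident macrophages of the brain, taken by symbol from the 35857 genes measured in mouse cerebral cortex. They fall into 3 classes: 15 genes of homeostatic microglia, 12 genes of complement, phagocytosis and lysosomes, and 8 genes of border macrophages. All 35 reached a mean of at least 1 TPM (an abundance scaled by transcript length to a fixed library total) over the libraries and were tested. Polyadenylated RNA was sequenced from whole cortex of C57BL/6 mice at postnatal day 7. The 3 control brains carried a wild type genotype label and the 3 knockout brains were labelled Qk-/-. No source used here says which promoter or cell type the removal of Qk was tied to, or whether microglia were targeted.

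Microglia are the macrophages of the brain tissue itself. They enter the embryonic brain from the yolk sac and so do not descend from the neural stem cells that make neurons and glia. In the resting, or homeostatic, state they survey the tissue through receptors for nucleotides and chemokines and depend on signalling through CSF1R. The first postnatal week is a time of high phagocytic activity, in which they take up dying cells and surplus synapses and use complement proteins and lysosomal enzymes. Border macrophages are a separate population in the meninges, around blood vessels and in the choroid plexus, known by scavenger receptors such as CD206 and LYVE1.

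The levels of the targeted gene followed the labels. Qk ranged from 36.5 to 43.2 TPM over the controls and from 14.6 to 15.4 TPM over the knockouts (limma, adjusted p = 0.000855). Knockout replicate 2 stood apart from the other 5 libraries by sex: Xist, the RNA of the inactive X chromosome, was at 41.2 TPM there and at most 0.03 TPM elsewhere, while the Y-linked Eif2s3y was at 0 TPM there and at 34.3 to 40.8 TPM elsewhere. Values without this library are given for the counts and for Spi1, Lyz2 and Pf4. The depth of the libraries is unknown, since TPM keeps no read number.

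None of the 35 members passed the test over all genes, and the largest differences lay in opposite directions in different classes. The homeostatic genes Selplg, P2ry12, P2ry13 and Olfml3 were lower in all 3 knockout libraries than in any control library. Cd14, Cd68, Lyz2, Tyrobp and C1qb, of the complement and lysosome class, were higher in all 3. Of the border macrophage genes, Stab1 alone was separated in this way. Irf8, of the homeostatic class, was also higher in all 3 knockout libraries than in any control library. The other members, among them Csf1r, Cx3cr1, Trem2 and Mrc1, overlapped between the groups.

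In numbers, 0 of 35 members were past an adjusted p of 0.05 (limma with Benjamini-Hochberg adjustment over 14994 genes), where 0.387% of all tested genes were, 0.1% higher and 0.287% lower in the knockout. The lowest adjusted p of a member was 0.12, that of Cd14. At an unadjusted p under 0.05 there were 7 members higher and 3 lower in the knockout, where 8.72% of all tested genes reached it, 3.42% higher and 5.3% lower. The 3 knockout values lay wholly above the 3 control values for 7 members and wholly below them for 4, which makes 11 of 35, or 31.4%. Over all tested genes this separation was seen in 14.2%, with 5.2% higher and 8.98% lower. Knockout replicate 3 decided part of these counts. Without it, 13 members were wholly higher and 5 wholly lower, but with 2 libraries in an arm the share over all genes also went up, to 9.06% and 15.5%. Without knockout replicate 2, 7 were wholly higher and 6 wholly lower, beside 10.9% and 15.2% of all genes. For wholly lower members the counts were thus near the share over all genes. The members were chosen with earlier results of these libraries known, so the counts describe this list and are no independent evidence.

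**Figure D1:**
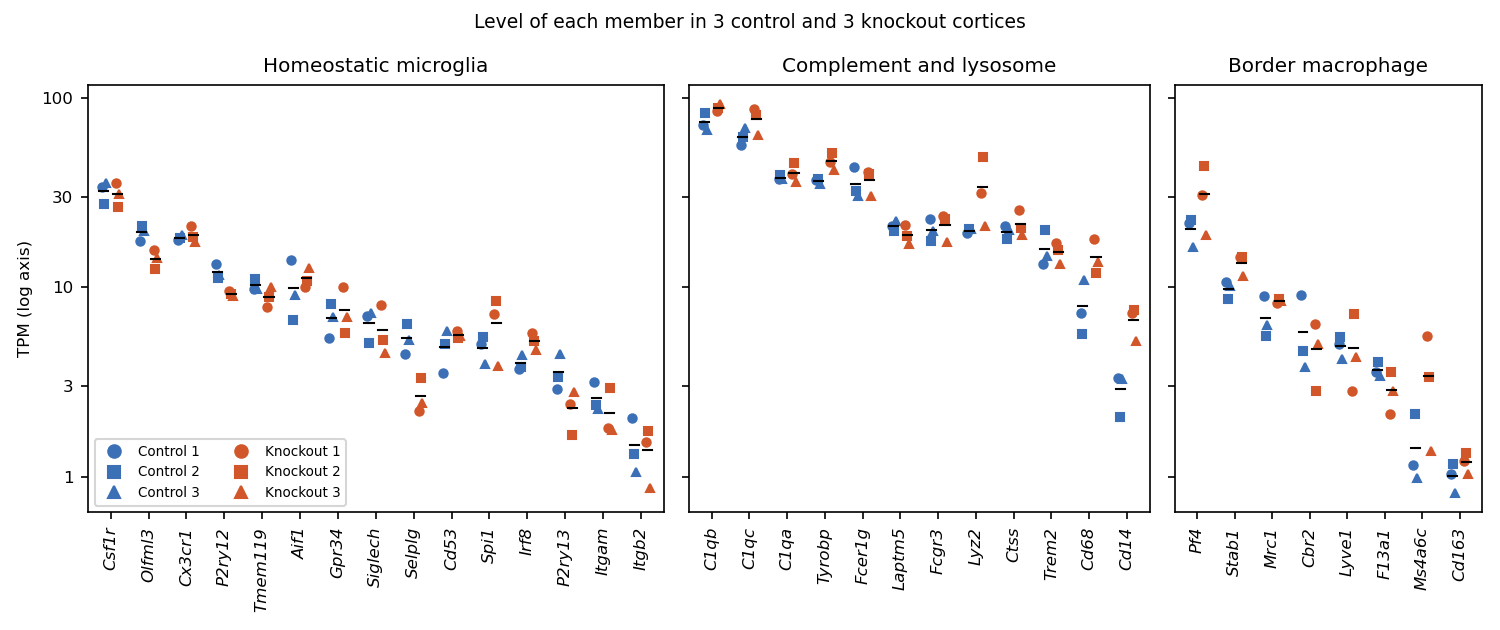
TPM of the 35 members (log axis) in 3 control (blue) and 3 knockout (orange) cortices, with a marker shape per replicate number and a black bar for each group mean. C1qb and C1qc have the highest levels and Cd163 the lowest control mean, and the groups of Selplg, Cd14 and Cd68 do not overlap.

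In control cortex the members spanned from 74.95 ± 8.26 TPM for C1qb to 1.01 ± 0.176 TPM for Cd163. The order began with C1qb, C1qc (62.7 ± 6.45 TPM), C1qa (38.1 ± 1.26 TPM), Tyrobp (36.6 ± 1.29 TPM), Fcer1g (35.3 ± 6.95 TPM) and Csf1r (32.4 ± 4.32 TPM; SD, n = 3 for each). Over the order of all 35, neighbours overlapped in their control ranges except at 4 places: C1qc lay wholly above C1qa, Csf1r above Laptm5, P2ry12 above Tmem119 and Itgam above Itgb2. The complement and lysosome class summed to 352 to 359 TPM in the control libraries, the homeostatic class to 137 to 147 TPM and the border macrophage class to 46.1 to 61.5 TPM. Complement and lysosome transcripts were thus the most abundant of the 3 classes in each control library.

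The nucleotide receptors come first among the homeostatic genes. P2ry12, the ADP receptor that guides microglial processes to injury, was at 13.3, 11.3 and 11.7 TPM in the controls and at 9.62, 9.27 and 8.98 TPM in the knockouts. Every knockout library was below every control library. The log2 change was −0.34 (95% interval −0.60 to −0.09; limma, adjusted p = 0.398), which did not pass. P2ry13, a related ADP receptor, was at 2.90, 3.37 and 4.43 TPM in the controls and at 2.41, 1.66 and 2.81 TPM in the knockouts, again with no overlap (log2 change −0.47, adjusted p = 0.587).

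Both genes lie on the minus strand of chromosome 3 in GRCm38, P2ry12 from 59216272 to 59262871 and P2ry13 from 59207892 to 59210882, with 5389 bases between them. Both sit within Med12l, a gene of the opposite strand that shares 9 bases of exon with P2ry12. Med12l was also lower in each knockout library (4.64, 4.80 and 5.07 TPM in control, 4.22, 4.11 and 3.90 TPM in knockout; adjusted p = 0.75). No source used here says whether counting used strand, and the part of Med12l in the P2ry12 and P2ry13 values was not tested. The neighbouring receptor P2ry14, named after its values were seen, was at 0.77 to 1.85 TPM in control and 1.56 to 2.70 TPM in knockout cortex.

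Selplg had the lowest ratio of knockout to control of all members. It encodes PSGL-1, a glycoprotein that binds selectins, and is part of the resting microglial signature. It was at 4.47, 6.44 and 5.29 TPM in control and at 2.21, 3.34 and 2.46 TPM in knockout cortex, so that the highest knockout library was below the lowest control. The knockout mean was 0.494 times the control mean, with a log2 change of −0.80 (95% interval −1.24 to −0.37; limma, adjusted p = 0.185). Tmem119, a membrane protein used to tell microglia from other macrophages, is its neighbour on the minus strand of chromosome 5, with 18019 bases between them. Tmem119 was at 9.83, 11.1 and 9.78 TPM in control and at 7.92, 8.85 and 10.1 TPM in knockout cortex, and these groups overlapped (log2 change −0.18, adjusted p = 0.75).

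Olfml3, a secreted olfactomedin-like protein of microglia, was at 17.5, 21.1 and 20.0 TPM in control and at 15.8, 12.5 and 14.3 TPM in knockout cortex. All knockout libraries were below all controls, with a log2 change of −0.44 (95% interval −0.71 to −0.16; limma, adjusted p = 0.28). These 4 genes are the wholly lower members, and all of them belong to the homeostatic class.

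For the other receptors of the class the groups overlapped. Cx3cr1, the receptor for the neuronal chemokine CX3CL1, was at 17.7, 18.3 and 19.0 TPM in control and at 21.2, 18.5 and 17.5 TPM in knockout cortex. Its log2 change of 0.05 had a 95% interval of −0.19 to 0.28. Csf1r, the receptor on which microglial survival depends, was at 34.0, 27.5 and 35.6 TPM and at 35.5, 26.7 and 31.4 TPM (log2 change −0.05, interval −0.35 to 0.25). Csf1r shares up to 873 bases of an exon with Hmgxb3 on the opposite strand, a gene at 28.3 to 34.8 TPM over the 6 libraries, so reads of the pair could be mixed. The intervals of Gpr34, a lysophosphatidylserine receptor, and Siglech, a sialic acid-binding lectin, were wider, at −0.36 to 0.59 and −0.62 to 0.35.

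The myeloid genes of this class, which microglia share with other white blood cells, lay on both sides of 0. Irf8, a transcription factor of the macrophage lineage, was at 3.70, 3.79 and 4.42 TPM in control and at 5.71, 5.23 and 4.68 TPM in knockout cortex. It was the homeostatic member with all knockout libraries above all controls (log2 change 0.32, adjusted p = 0.606). Spi1, which encodes the transcription factor PU.1, had a log2 change of similar size (0.32), but knockout replicate 3 was at 3.82 TPM, below all controls (3.93 to 5.50 TPM). The log2 change of Spi1 was 0.12 without knockout replicate 2 and 0.61 without knockout replicate 3. Aif1, the gene of the marker IBA1, ranged from 6.76 to 14.01 TPM in control and from 10.0 to 12.6 TPM in knockout cortex. The integrin genes Itgam and Itgb2, which form complement receptor 3, were under 3.2 TPM in each library, and their groups overlapped, as did those of the tetraspanin gene Cd53. Itgam shares up to 210 exon bases with Gm49368 on the same strand, so reads of the pair could be divided. Over the 15 genes, 6 had a positive and 9 a negative log2 change, with a median of −0.06 beside −0.03 for all genes tested.

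**Figure D2:**
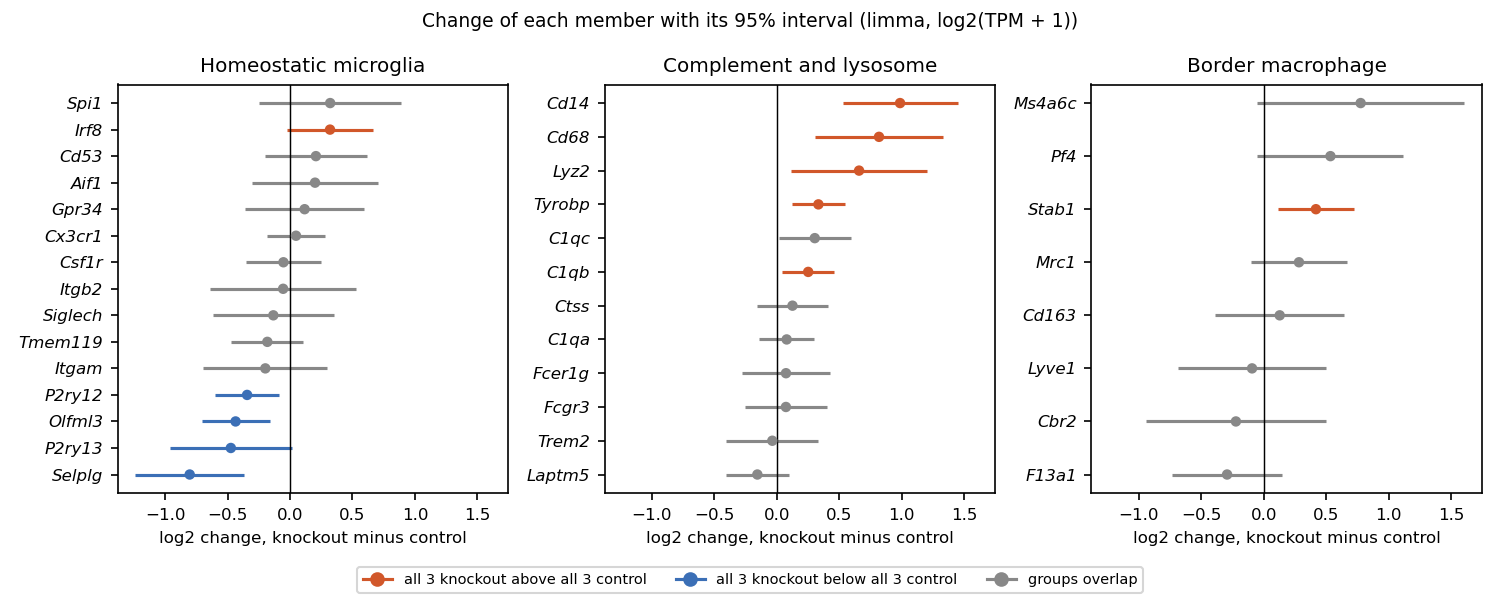
Log2 change of each member, knockout minus control, on the log2(TPM + 1) scale, with its 95% interval from limma, ordered within the 3 classes. Orange and blue points are genes whose knockout libraries lie wholly above or below the controls, 7 and 4 of 35, and grey points are genes whose groups overlap.

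Among the receptors and adaptors of the complement and lysosome class, Cd14 had the smallest p of all members. CD14 is a co-receptor for bacterial lipopolysaccharide. Cd14 (chromosome 18, 36725067 to 36726798, minus strand) was at 3.33, 2.07 and 3.29 TPM in control and at 7.31, 7.57 and 5.22 TPM in knockout cortex. Every knockout library was above every control. The knockout mean was 2.31 times the control mean, and the log2 change was 0.99 (SE 0.203, 95% interval 0.53 to 1.45; limma, adjusted p = 0.12). Leaving out each library in turn gave log2 changes of 0.82 to 1.13 and adjusted p of at least 0.127.

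Tyrobp encodes DAP12, an adaptor that carries the signal of TREM2 and other receptors. It was at 37.2, 37.4 and 35.1 TPM in control and at 46.2, 51.2 and 42.0 TPM in knockout cortex, with no overlap (log2 change 0.33, interval 0.12 to 0.54; adjusted p = 0.286). Its partner Trem2, a lipid receptor of microglia, was at 13.2, 20.1 and 14.7 TPM and at 17.2, 15.8 and 13.3 TPM (log2 change −0.04, interval −0.40 to 0.33). Fcer1g, the adaptor of Fc receptors, and Fcgr3, a low-affinity receptor for IgG, each had a log2 change of 0.07, with overlapping groups. Whether Tyrobp differed from Trem2 in its change was not tested.

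The 3 chains of C1q, the recognition protein of the classical complement pathway, lie side by side on the minus strand of chromosome 4: C1qb from 136880129 to 136886187, C1qc from 136889804 to 136893065 and C1qa from 136895917 to 136898803. C1qb was at 72.6, 84.1 and 68.2 TPM in control and at 85.4, 88.4 and 93.4 TPM in knockout cortex, so that the lowest knockout library was just above the highest control (log2 change 0.25, interval 0.04 to 0.46; adjusted p = 0.469). C1qc was at 56.4, 62.2 and 69.3 TPM and at 87.8, 81.9 and 64.1 TPM, with knockout replicate 3 inside the control range (log2 change 0.30; adjusted p = 0.549). C1qa was at 37.3, 39.6 and 37.4 TPM and at 39.7, 45.4 and 36.2 TPM (log2 change 0.08, interval −0.14 to 0.30). C1qa made up 21.3% to 22.5% of the summed C1q TPM in the control libraries and 18.7% to 21.0% in the knockouts. The sum of the chains was 166, 186 and 175 TPM in control and 213, 216 and 194 TPM in knockout cortex.

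The lysosomal members were unequal. Cd68, a lysosomal membrane glycoprotein of phagocytes, was at 7.31, 5.64 and 10.9 TPM in control and at 18.04, 11.9 and 13.6 TPM in knockout cortex. The knockout mean was 1.83 times the control mean, and control replicate 3 came within about 1 TPM of knockout replicate 2 (log2 change 0.82, interval 0.31 to 1.33; adjusted p = 0.279). Lyz2, the macrophage lysozyme, was narrow in control, at 19.4, 20.3 and 20.3 TPM, and wide in knockout cortex, at 31.7, 49.0 and 21.2 TPM. Its log2 change of 0.66 (interval 0.11 to 1.20; adjusted p = 0.472) was 0.36 without knockout replicate 2 and 0.95 without knockout replicate 3. Lyz1, the near-identical neighbouring lysozyme gene, was listed at 0 in all 6 libraries, and how reads shared by the pair were divided was not tested. Ctss, the cathepsin S protease, and Laptm5, a lysosomal membrane protein of blood cells, overlapped between the groups (log2 changes 0.12 and −0.16). Over the 12 genes of the class 10 had a positive log2 change and 2 a negative, with a median of 0.19.

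Several marker genes of recruited white blood cells, which also use Cd14 and Lyz2, were at or near 0 TPM in these libraries. Of 10 monocyte genes, Ccr2, the receptor of entering monocytes, was at 0 to 0.14 TPM, Ly6c2 at 0 to 0.47 TPM, and Chil3 was at 0 in all 6 libraries. The list summed to 135 to 159 TPM in control and 132 to 142 TPM in knockout cortex, nearly all of it from Fn1, Nr4a1, Vcan and Ly6c1, which other brain cells express. Of the 10 monocyte genes 5 were tested and 0 called, with a median log2 change of −0.10. Of these 5, 1 was wholly higher and 2 wholly lower in the knockout, beside 5.2% and 8.98% of all tested genes. The 12 neutrophil genes summed to 6.63 to 9.33 TPM and to 7.89 to 11.6 TPM, with Camp, Retnlg and Ly6g at 0. The 3 neutrophil genes tested had a median log2 change of 0.16, with 0 called and overlapping groups for each. The 11 lymphocyte genes summed to 1.38 to 2.54 TPM in control and to 3.93 to 6.56 TPM in knockout cortex, higher in every knockout. Among them only Cd79b, a B cell receptor subunit, could be tested. It was at 0.58 to 1.38 TPM in control and at 3.21 to 4.01 TPM in knockout cortex (adjusted p = 0.0931), while the T cell gene Cd3g and the cytotoxic genes Nkg7 and Gzma were at 0 throughout. The part of such cells in the Cd14 and Lyz2 values was not tested. In whole tissue, more cells of a type and more RNA per cell cannot be told apart.

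Several border macrophage genes differed widely between libraries of the same group. Stab1, a scavenger receptor of macrophages and of some endothelium, was at 10.7, 8.66 and 10.2 TPM in control and at 14.5, 14.5 and 11.5 TPM in knockout cortex. All knockouts were above all controls (log2 change 0.42, interval 0.11 to 0.72; adjusted p = 0.379). Stab1 shares up to 112 exon bases with Nt5dc2 on the opposite strand, so reads of the pair could be mixed. Pf4, a chemokine of platelets that border macrophages also make, was at 22.0, 22.6 and 16.4 TPM and at 30.8, 43.7 and 19.0 TPM. Its log2 change of 0.53 (adjusted p = 0.612) was 0.26 without knockout replicate 2 and 0.84 without knockout replicate 3. Ms4a6c, a membrane protein of monocytes and macrophages, was at 1.15, 2.14 and 0.98 TPM and at 5.53, 3.35 and 1.36 TPM (log2 change 0.78, adjusted p = 0.604; 0.43 without knockout replicate 1 and 1.17 without knockout replicate 3). Its exons overlap those of BE692007 on the other strand, which was listed at 0, and reads may also be divided among its close relatives Ms4a6b and Ms4a6d. Both relatives, named after their values were seen, were wholly higher in the knockout and did not pass: Ms4a6b was at 1.33 to 2.75 TPM and 2.81 to 3.13 TPM (adjusted p = 0.659), and Ms4a6d at 0.65 to 1.17 TPM and 1.66 to 2.19 TPM (adjusted p = 0.455).

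The receptors that name these cells overlapped between the groups. Mrc1, which encodes the mannose receptor CD206, was at 8.96, 5.51 and 6.31 TPM in control and at 8.23, 8.68 and 8.53 TPM in knockout cortex (log2 change 0.28, interval −0.10 to 0.66). Cd163, the receptor for haemoglobin bound to haptoglobin, was at 0.82 to 1.17 TPM and 1.03 to 1.33 TPM. Lyve1, a hyaluronan receptor shared with lymphatic endothelium, was at 5.04, 5.44 and 4.19 TPM and at 2.82, 7.22 and 4.29 TPM, so that the knockouts held both the lowest and the highest library. F13a1, the A subunit of coagulation factor XIII, and Cbr2, a carbonyl reductase, had negative log2 changes (−0.29 and −0.22) with intervals that included 0. The 8 genes had a median of 0.20, with 5 positive and 3 negative.

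**Figure D3:**
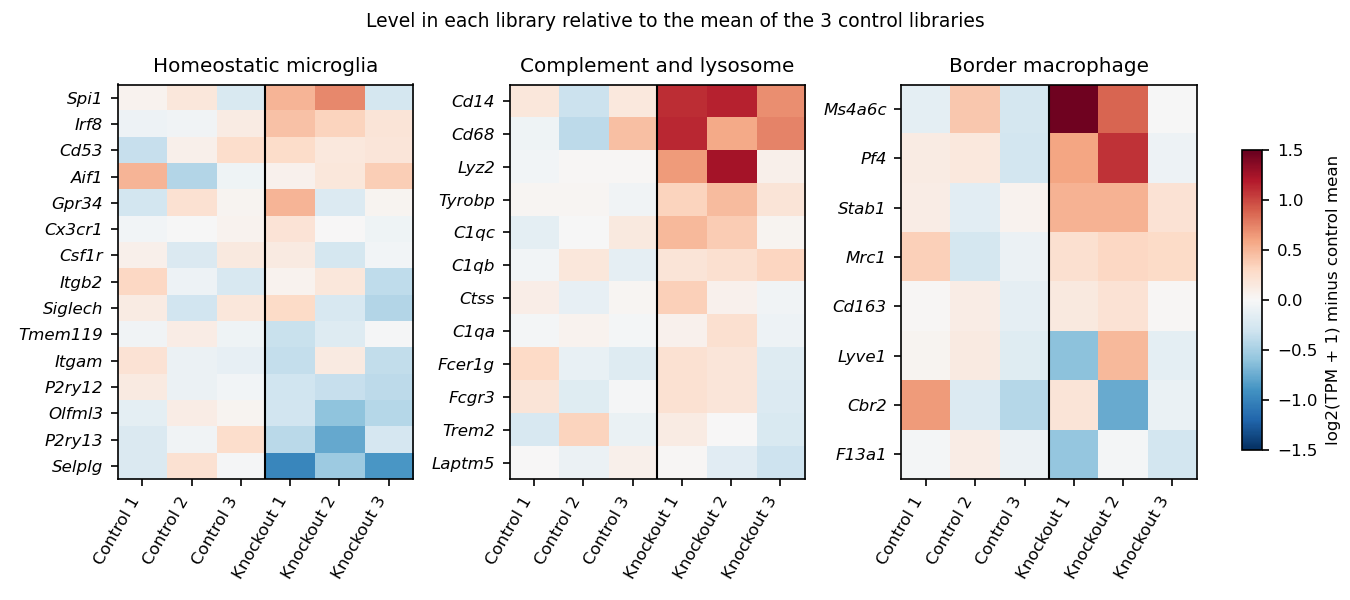
Level of each member in each library as log2(TPM + 1) minus the mean of the 3 controls, red for above and blue for below, by class. Cd14, Cd68, Tyrobp and C1qb are above the control mean in all 3 knockout libraries and Selplg, P2ry12, P2ry13 and Olfml3 below it, while Lyz2, Pf4 and Ms4a6c are strong in knockout replicates 1 and 2 and near the control mean in replicate 3.

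Tissues that carry border macrophages were unequally represented in the libraries. The 12 genes of meningeal fibroblasts summed to 517, 487 and 579 TPM in control and to 424, 479 and 409 TPM in knockout cortex, lower in every knockout, with 11 of 12 log2 changes negative and 0 past the threshold. Igf2, the most abundant of them, was at 185 to 239 TPM and 150 to 184 TPM. The 10 choroid plexus genes, led by Ttr, summed to 1558, 766 and 1484 TPM in control and to 686, 1047 and 757 TPM in knockout cortex. Within the knockouts, replicate 2 had the highest sums of the meningeal list, of the choroid plexus list and of the border macrophage class. Blood also differed. The 7 red blood cell genes summed to 11126.5, 12560 and 6965 TPM in control cortex. In knockout cortex they summed to 10818, 9223 and 4146 TPM, so that replicate 3 was the lowest in both groups. Of the endothelial cells that also express Stab1 and Lyve1, the 10 genes of blood endothelium summed to 465 to 608 TPM in control and 440 to 515 TPM in knockout cortex, with 10 negative log2 changes and 0 called. The lymphatic gene Prox1, also expressed by neurons, was at 3.79 to 7.66 TPM and 3.46 to 6.39 TPM, and 0 of 5 tested lymphatic genes were called. Of 6 tested genes of antigen-presenting cells 0 were called, and Cd74, the invariant chain of MHC class II, was at 5.81 to 20.7 TPM and 6.73 to 9.79 TPM. The part of these tissues and cells in the values of the border macrophage genes was not tested. None of the 18 tested members of a further border macrophage list passed the test, and their median log2 change was 0.05.

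**Figure D4:**
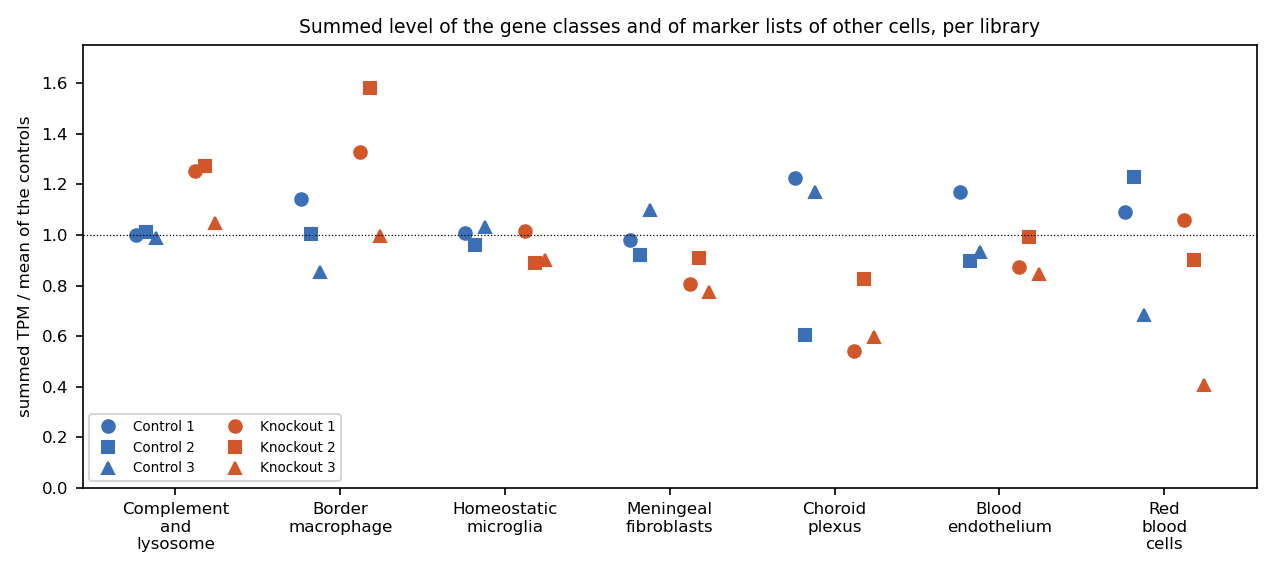
Summed TPM of the 3 gene classes and of marker lists of meningeal fibroblasts, choroid plexus, blood endothelium and red blood cells, each divided by its control mean, by library. Complement and lysosome genes are above the controls in all 3 knockout libraries and meningeal fibroblast genes below them in all 3, while choroid plexus and red blood cell genes vary widely within groups.

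Set side by side within libraries, the complement and lysosome class stood further above the homeostatic class in each knockout than in any control. The mean log2(TPM + 1) level over the 15 homeostatic genes was 3.03, 3.01 and 3.05 in control and 3.02, 2.93 and 2.85 in knockout cortex, and the groups overlapped. Over the 12 complement and lysosome genes it was 4.58, 4.51 and 4.59 in control and 4.96, 4.94 and 4.64 in knockout cortex, higher in each knockout. Over the 8 border macrophage genes it was 2.70, 2.60 and 2.39 and then 2.81, 2.90 and 2.55, with overlap. The complement and lysosome level minus the homeostatic level was 1.54, 1.499 and 1.54 in control and 1.95, 2.01 and 1.79 in knockout cortex (means 1.53 ± 0.0225 and 1.91 ± 0.111; SD, n = 3). This difference did not overlap between the groups, and the smallest gap came from knockout replicate 3. The border macrophage level minus the homeostatic level was −0.33, −0.41 and −0.66 in control and −0.21, −0.03 and −0.30 in knockout cortex, also without overlap. These are descriptions of lists chosen with results known, and no p was computed for them.

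**Figure D5:**
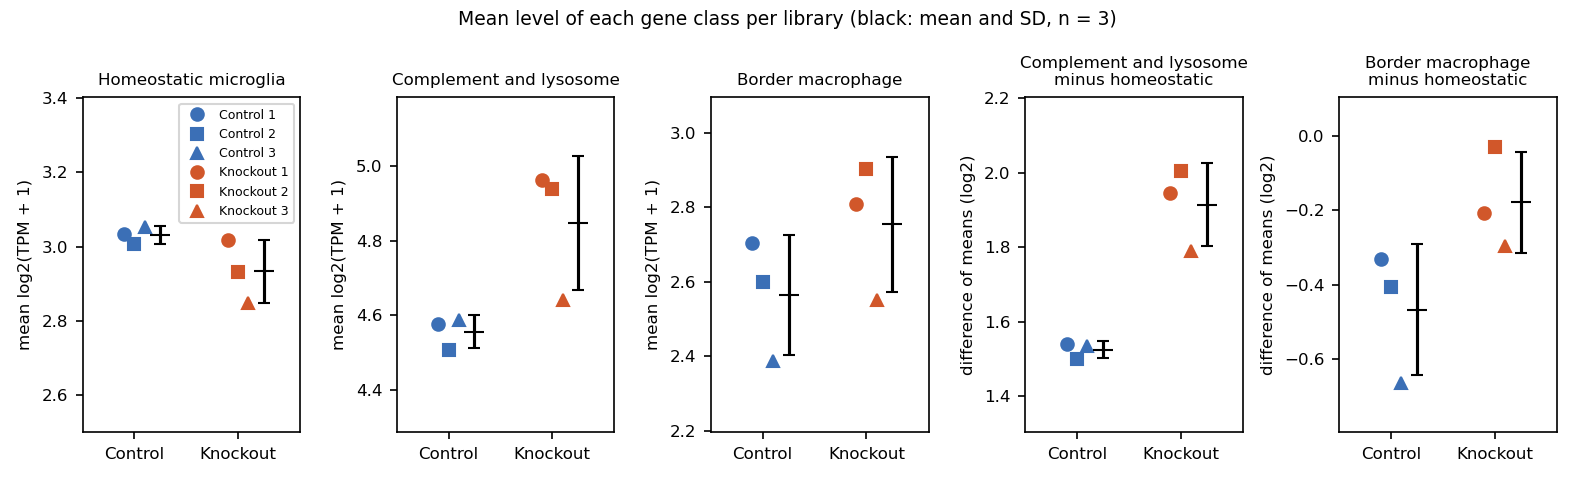
Mean log2(TPM + 1) level of the members of each class per library, and the difference of 2 classes from the homeostatic class, with group means and SD (black, n = 3); the panels have equal spans but do not start at 0. The complement and lysosome level minus the homeostatic level is 1.499 to 1.54 in the controls and 1.79 to 2.01 in the knockouts, while the homeostatic and border macrophage levels overlap between groups.

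No further gene of microglial identity passed the test. Of 30 such genes 27 were tested, 13 log2 changes were positive and 14 negative, and the median was −0.02. The most abundant, Mef2c and Bin1, are also expressed by neurons and oligodendrocytes. Of those more particular to microglia, named after their values were seen, Fcrls, an Fc receptor-like protein, was at 30.7 to 33.2 TPM in control and 28.7 to 37.9 TPM in knockout cortex, and Sall1, a transcription factor that maintains microglial identity, at 10.7 to 13.4 TPM and 8.99 to 11.0 TPM. Vsir, which encodes the checkpoint protein VISTA, was at 7.71, 7.78 and 6.39 TPM in control and at 4.46, 5.62 and 4.42 TPM in knockout cortex (log2 change −0.51, adjusted p = 0.326).

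A list of survival and restraint signals of microglia, with receptors as well as ligands, showed no called member among the 17 tested of 19. Its median log2 change was 0.01. Il34, the neuronal ligand of CSF1R, was at 26.5 to 38.9 TPM in control and 27.4 to 30.5 TPM in knockout cortex, and the second ligand Csf1 at 5.67 to 6.99 TPM and 6.88 to 9.63 TPM. Cx3cl1, the ligand of CX3CR1, was at 241 to 269 TPM and 243 to 250 TPM, with a 95% interval of the log2 change of −0.21 to 0.10. Tgfb1, a cytokine needed for the homeostatic state, was at 9.60, 9.57 and 9.91 TPM in control and at 12.8, 11.8 and 11.0 TPM in knockout cortex (adjusted p = 0.549).

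Other lysosomal and complement genes passed in no case. Of 20 lysosome genes, 11 log2 changes were positive and 9 negative, with a median of 0.08. Psap, the saposin precursor, was at 950 to 1050 TPM in control and 968 to 1028 TPM in knockout cortex, and Ctsb, cathepsin B, at 364 to 429 TPM and 383 to 435 TPM. Ctsz, cathepsin Z, named after its values were seen, was nearest the threshold, at 65.6, 58.1 and 58.8 TPM and at 83.2, 88.9 and 79.7 TPM (log2 change 0.46, adjusted p = 0.0680). Lamp1, a lysosomal membrane protein also named after its values were seen, was wholly lower, at 339 to 378 TPM and 287 to 297 TPM (adjusted p = 0.178). Lamp1 was the 1 wholly lower gene of the 20, and 4 were wholly higher, Ctsz among them. Over all tested genes 8.98% were wholly lower and 5.2% wholly higher. The 14 tested genes of the complement cascade and its regulators had a median of 0.06, and C3ar1, the C3a receptor of microglia, named after its values were seen, was at 0.89 to 1.48 TPM and 2.05 to 3.51 TPM (adjusted p = 0.325). C3 itself was under 1 TPM in each library.

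Of the other lists examined, calls were found among the genes of the phagocytic microglia of early postnatal white matter and in no other. Of 18 such genes 16 were tested, and Spp1 and Gpnmb rose past the threshold. Spp1, osteopontin, was at 24.8, 33.1 and 21.8 TPM in control and at 96.1, 57.1 and 60.1 TPM in knockout cortex (limma, adjusted p = 0.0368), and Gpnmb, a glycoprotein of lipid-laden phagocytes, was at 0.67 to 1.33 TPM and 4.46 to 8.97 TPM (adjusted p = 0.0242). Clec7a, a receptor of the same state, was at 0.23 to 1.32 TPM and 0.90 to 1.96 TPM and did not pass. Axl, a receptor tyrosine kinase of phagocytes named after its values were seen, was at 15.8, 13.5 and 15.6 TPM in control and at 11.6, 10.8 and 11.1 TPM in knockout cortex, wholly lower (adjusted p = 0.288). Axl was the 1 wholly lower gene of the 16, and 7 were wholly higher, Spp1 and Gpnmb among them. Over all tested genes 8.98% were wholly lower and 5.2% wholly higher. The other wholly higher genes, named after their values were seen, were Lgals3, Lgals1, Lilrb4a, Cd9 and Fabp5, and none passed. Lgals3 and Lgals1 were nearest the threshold (limma, adjusted p = 0.0591 and 0.0733). Of the 16 log2 changes 12 were positive and 4 negative, with a median of 0.39.

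Short stretches upstream of 5 member genes show a letter pattern that the macrophage factor PU.1, encoded by Spi1, is known to favour. RefSeq promoter sequences (GRCm38.p6) were found for 25 of the 35 members. The motif AGGAAGT, on either strand of the 250 bases before the gene start, was present in 8 of these 25 (32%), with 4 of 7 border macrophage genes, 3 of 9 complement and lysosome genes and 1 of 9 homeostatic genes. Of all 27025 genes with a promoter sequence 8.80% had it. The windows outside annotated exons are printed 5′ to 3′ on the strand that reads AGGAAGT, with the motif in capitals, because they include C1qb, Lyz2 and Pf4 described above. They lie at chr4:136886237-136886263 (C1qb, plus strand), chr4:136893093-136893119 (C1qc, plus), chr10:117282356-117282382 (Lyz2, plus), chr5:90772415-90772434 (Pf4, minus) and chr2:14229193-14229219 (Mrc1, minus).
C1qb: tgctgccctcAGGAAGTttcaggtcct
C1qc: tgccaaaatgAGGAAGTgtctgccgtc
Lyz2: tgtgcaaaacAGGAAGTtcctaccgat
Pf4: atgAGGAAGTgctctgcaga
Mrc1: gagaaaacgcAGGAAGTggggagaagt
A match of letters is a description of the sequence and does not show that the factor binds there. Of these 5 genes, C1qb and Lyz2 had knockout libraries wholly above the controls, and C1qc, Pf4 and Mrc1 had overlapping groups.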

How the data were processed

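Per the labels' protocols, cortical RNA went through a column and then poly(A) selection on beads, and sequencing was on the Ion Proton. The authors deposited 1 TPM value per gene and library; STAR 2.4.1d, RSEM 1.3.0 and builds mm10 and GRCm38.p4 are named in the submitters' processing notes, and the annotation is not given in the sources used here. TPM sums to a fixed total, so abundant genes press on all others, and depth is unknown. Groups came from the sample titles. Correlations between libraries were 0.978 to 0.982 within groups, and no pair was a duplicate.

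TPM were used as deposited. The test was limma 3.58.1 (R 4.3.3) on log2(TPM + 1) of genes averaging at least 1 TPM (eBayes with trend, group as the only term), two-sided, adjusted by Benjamini-Hochberg over 14994 genes. Log2 changes understate those of low genes. P-values set the difference between these 3 and 3 libraries against the spread within groups, moderated by the trend over all genes tested. Alternatives changed the pseudocount, the filter, the scaling, the trend, the replicate block and the libraries used. Coordinates and exon overlaps came from GENCODE M21 (GRCm38) by symbol. Members and lists were chosen with earlier results of these data known. All members were named. For other lists the rule was to name the called genes or, without calls, the 2 most abundant. It was not followed for every list, and some of the most abundant genes are not named. Genes outside this rule are said to be named after their values were seen, and also include Vsir, Med12l, Hmgxb3, Lyz1, BE692007, Prox1, Xist, Eif2s3y, Il34, Csf1, Tgfb1, C3, Clec7a and the monocyte, neutrophil and lymphocyte genes at or near 0. Values of a few genes are left out here.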

Additional observations from a re-analysis of the deposited data

How the results depend on the processing

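No member passed an adjusted p of 0.05 under any of the 11 alternatives. The number of genes called over all genes was 58 as reported, 37 with no filter on low values, 28 without the variance trend, 38 with a replicate block, and 27 to 59 with each library left out in turn, which leaves fewer samples. The count of wholly higher members was 7 to 13 and of wholly lower members 4 to 6 in the fits with a library left out. The shares of all genes beside these counts were 8.73% to 10.9% and 12.6% to 17.0%. At an unadjusted p under 0.05 there were 5 to 9 members higher and 3 to 4 lower in the same fits. Of all genes, 2.79% to 3.72% were higher and 3.8% to 5.66% lower at that threshold. The median of the homeostatic class, −0.06, ranged from −0.13 without control replicate 2 to 0.0186 without knockout replicate 3. The medians of the complement and lysosome class (0.15 to 0.23) and of the border macrophage class (0.15 to 0.30) stayed positive there. Of the 35 members 23 kept their direction under all alternatives. The other 12, none at an unadjusted p under 0.05, changed sign only when a library was left out, and the cause was not tested. Their log2 changes then ranged from −0.0054 to 0.15 for C1qa, −0.025 to 0.22 for Fcer1g, −0.16 to 0.051 for Csf1r, −0.016 to 0.21 for Fcgr3, −0.028 to 0.10 for Cx3cr1, −0.15 to 0.13 for Trem2, −0.021 to 0.45 for Aif1, −0.081 to 0.28 for Gpr34, −0.34 to 0.0186 for Siglech, −0.44 to 0.10 for Cbr2, −0.38 to 0.17 for Lyve1 and −0.18 to 0.11 for Itgb2. Same-numbered libraries of the groups correlated weakly in their deviations from the group means (0.0350, 0.0311 and 0.0134), so the numbers were not taken as pairs, although 6 of 6 libraries were nearest to their own number. No member was called with or without the block, but some unadjusted p moved. With the block, 8 members were higher and 3 lower at an unadjusted p under 0.05, beside 3.43% and 4.98% of all genes. The unadjusted p (limma) went from 0.0688 to 0.00748 for Pf4 and from 0.0634 to 0.0369 for Ms4a6c. For C1qc it went from 0.0401 to 0.0646.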
